A study of Mus musculus with 16 samples.

Results

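The RNA described here is that of Wwox, and it was taken as all RNA-DNA pairs whose RNA carried this gene name in the tables of significant interactions. These were 9179 of 1305107 pairs in the Input table and 14350 of 1415135 pairs in the H3K27me3-RADIP table. Wwox was selected on its measured pair number and distances in these same tables, so the values below describe it and were given no test. RADIP is a proximity ligation method in which an adaptor joins RNA to nearby DNA in fixed nuclei, after which an antibody pulls down the chromatin of interest. Both conditions used untreated PGK12.1 cells, a mouse embryonic stem cell line, fixed in 1% formaldehyde. In H3K27me3-RADIP the lysate was precipitated with an antibody against trimethylated lysine 27 of histone H3, and Input was lysate of the same kind without antibody selection. There were 8 sequencing libraries of each condition, and the authors merged them into 1 table per condition. There was therefore no spread between replicates to set a difference against, and the intervals below are 95% intervals that cover counting error only. Of 12 embryonic stem cell markers, 7 had listed pairs in at least 1 table, among them Esrrb with 2388 Input and 2500 H3K27me3-RADIP pairs, while Pou5f1, Nanog, Dppa5a, Tdgf1 and Prdm14 had none.

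Wwox encodes a WW domain oxidoreductase that is known as a tumour suppressor. The gene spans a common fragile site, a stretch of chromosome that tends to break when DNA replication is slowed. Most of its length is intron, and RNA polymerase needs hours to cross genes of this kind. Nascent RNA stays tethered to its template while it is made, so in a proximity ligation assay it can be joined to the DNA of its own gene. H3K27me3 is the repressive histone mark laid down by Polycomb repressive complex 2.

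Wwox (ENSMUSG00000004637.15) lies on the plus strand of the mouse GRCm38 (mm10) assembly at chr8:114439655-115352708, a length of 913 kb. Its full-length transcript has 9 exons and 8 introns, and the exons make up 0.246% of the gene. Intron 5 (chr8:114489005-114679786) is 191 kb long and intron 8 (chr8:114712252-115351637) is 639 kb long, which together is 90.9% of the gene. The results turn on these introns, so the reference sequence at their ends is shown, with 15 bases on each side of the junction and the first or last 2 intron bases in capitals.
exon 5 to intron 5, chr8:114488990-114489019: atcctggaggagtggGTaagcgctctgctg
intron 5 to exon 6, chr8:114679772-114679801: ttcctttcattgcAGcacaaagccaaggtg
exon 8 to intron 8, chr8:114712237-114712266: ttcaccaagtccatgGTaagtgtgcggctt
intron 8 to exon 9, chr8:115351623-115351652: ttctctgcttttcAGcaacagggagctgct
Both introns begin with GT and end with AG, the usual marks of a splice site pair.

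Nearly all Wwox RNA in the pairs was intronic. The label intron was carried by 9003 Input pairs (98.1%, interval 97.8 to 98.3%) and by 14110 H3K27me3-RADIP pairs (98.3%, interval 98.1 to 98.5%), beside 88.9% and 89.6% of the pairs of all protein-coding RNAs. The 9 exons of the full-length transcript together held 89 Input pairs (0.97%) and 104 H3K27me3-RADIP pairs (0.725%). The last exon, which ends the message, held 0 and 3 pairs. Exon 1 had the most exonic pairs, with 37 in Input and 39 in H3K27me3-RADIP. All RNA tags were on the plus strand, the strand of the gene. The authors' assignment of RNA tags to genes used strand, so this value follows from how the pairs were chosen and says nothing of antisense genes inside Wwox.

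RNA tags followed a sawtooth along the gene, with a step up after exon 5 and after exon 8 and a decline through each of the long introns. Intron 5 held 2358 Input pairs (25.7%) and 3590 H3K27me3-RADIP pairs (25.02%). Intron 8 held 6159 Input pairs (67.1%, interval 66.1 to 68.1%) and 9889 H3K27me3-RADIP pairs (68.9%, interval 68.2 to 69.7%). The share in intron 8 was 1.81 percentage points higher in H3K27me3-RADIP (interval 0.593 to 3.04). Over the bins listed in both tables and over DNA tags within 5 Mb the difference was 1.30 and 1.25 points and its interval included 0 (-0.0254 to 2.63 and -0.0641 to 2.58). Introns 5 and 8 thus carried 92.8% and 93.9% of the pairs, slightly above their part of the gene.

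Within intron 5, the first 10% of the length had 410 pairs in Input (interval 371 to 452) and the last 10% had 76 (interval 59.9 to 95.1). In H3K27me3-RADIP the corresponding numbers were 599 (interval 552 to 649) and 102 (interval 83.2 to 124). The start of intron 5 thus had 5.39 times the pairs of its end in Input and 5.87 times in H3K27me3-RADIP. Within intron 8, the first 10% had 1272 Input pairs and the last 10% had 111, a ratio of 11.5. In H3K27me3-RADIP the first 10% of intron 8 had 2095 pairs and the last 10% had 181, a ratio of 11.6. The slope was therefore alike in both tables although the H3K27me3-RADIP table held more pairs in each of the 10 equal parts of both introns. Intron 4, with 40.6 kb the next in length, had 45 Input pairs in its first 10% and 13 in its last 10%, and 56 and 9 in H3K27me3-RADIP.

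Per kilobase of gene, the density of RNA tags returned to nearly the same height at the start of each long intron. It was 21.5 pairs per kb in the first 10% of intron 5 and 19.9 in the first 10% of intron 8 in Input, and 31.4 and 32.8 in H3K27me3-RADIP. Between them, at the end of intron 5, it had declined to 3.98 pairs per kb in Input and 5.35 in H3K27me3-RADIP. The annotation holds shorter transcripts as well, and 2 protein-coding ones, Wwox-207 and Wwox-203, end 6.43 kb and 163 kb into intron 8. The density did not drop at the end of Wwox-203, where the 25 kb before it held 334 Input and 561 H3K27me3-RADIP pairs and the 25 kb after it 399 and 632. Labels of an untranslated region at the far end of a message were few, with 30 Input and 41 H3K27me3-RADIP pairs.

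**Figure D1:**
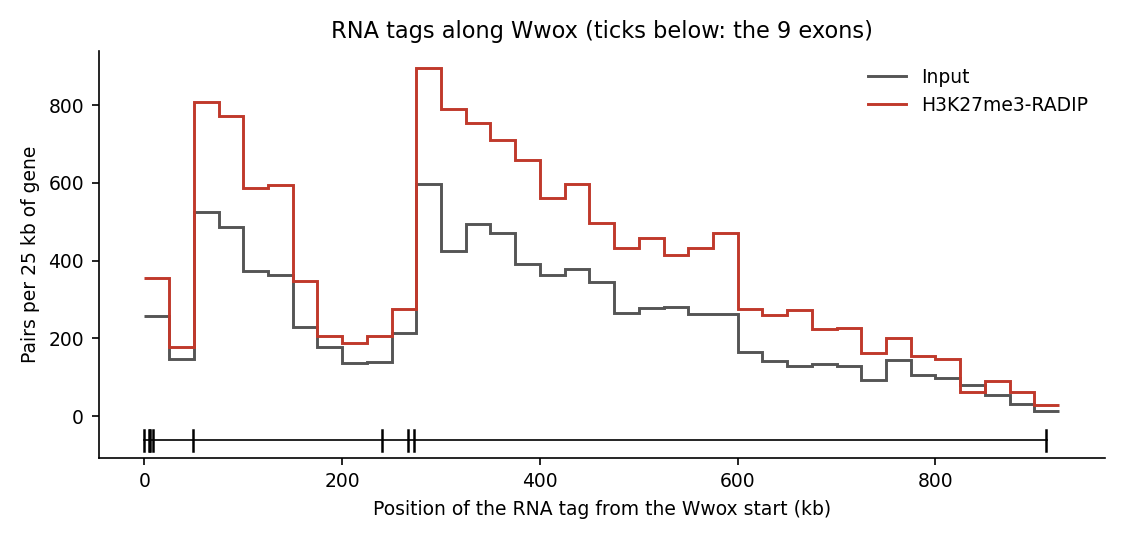
RNA tags per 25 kb of gene (vertical axis) against the distance from the Wwox start in kb (horizontal axis), for Input (grey) and H3K27me3-RADIP (red); the ticks under the curves are the 9 exons, and the last window runs past the end of the gene. Both curves step up after exon 5 and after exon 8 and decline through introns 5 and 8.

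The RNA tags were spread over many positions. The 9179 Input pairs used 7890 RNA positions, of which 86.6% were used once, and the 14350 H3K27me3-RADIP pairs used 11784, of which 83.3% were used once. The 3 positions with the most pairs over both tables are shown as the most frequent pieces of this RNA, each given by the 24 bases that a reading of the tag start from 0 or from 1 has in common.
intron 8, chr8:114859347-114859370: acaatatcatcgctttcaagctgt
intron 8, chr8:114893460-114893483: tgtgtctctgtgtatctccacctc
intron 5, chr8:114502537-114502560: accagggtgggttatctgggaaaa
The first had 7 Input and 21 H3K27me3-RADIP pairs and was joined to DNA at 26 positions in 26 bins. The second had 6 and 13 pairs, in 17 bins, and the third 10 and 8 pairs, in 18 bins. Each of these sequences occurs 1 time on the plus strand of chromosome 8. Even the most used RNA position was thus joined to many places and was not a repeat of 1 ligation event.

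On the DNA side, tags were assigned to 25-kb bins, and a bin was listed when its pair number passed the false discovery limit of the authors (q-value of at most 0.1). All listed Wwox pairs had their DNA tag on chromosome 8, and no pair with another chromosome was listed. The RNA was listed in 390 bins in Input (9.75 Mb) and in 591 bins in H3K27me3-RADIP (14.8 Mb). The mean was 23.5 pairs per listed bin in Input and 24.3 in H3K27me3-RADIP. The fewest pairs in a listed bin were 9 in both tables, and bins with the same pair number had the same q-value at every distance, for all 67 pair numbers seen in Input and all 81 in H3K27me3-RADIP. A bin that is not listed may therefore hold up to 8 pairs.

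The body of the gene was covered without a break. All 38 bins that overlap Wwox were listed in both tables, with 43 to 111 pairs per bin in Input and 54 to 150 in H3K27me3-RADIP. The RNA was unevenly spread along the gene, but its DNA contacts were more even. In 4 successive groups of 9 or 10 of these bins from the start of the gene, the mean pairs per bin were 99.2, 93.7, 81.6 and 62.1 in Input and 118, 122, 117 and 92.0 in H3K27me3-RADIP. The group at the end of the gene was the lowest in both. DNA tags inside the gene made up 34.3% of Input pairs (3151 pairs, interval 33.4 to 35.3%) and 29.3% of H3K27me3-RADIP pairs (4202 pairs, interval 28.5 to 30.03%). The share inside the gene was lower in H3K27me3-RADIP (difference -5.05 percentage points, interval -6.27 to -3.82). Over only the 325 bins listed in both tables, the difference was 0.698 points, with an interval that covers both directions (-0.672 to 2.07). The lower share thus rests on the bins listed in 1 table.

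Few other RNAs had listed pairs on the Wwox gene, and contacts below the listing limit are not counted here. In its 38 bins, Wwox itself gave 3222 of 3330 Input pairs (96.8%, interval 96.1 to 97.3%) and 4289 of 4390 H3K27me3-RADIP pairs (97.7%, interval 97.2 to 98.1%). The others came from Cmip, with 56 Input and 24 H3K27me3-RADIP pairs, from Cdyl2, which encodes a chromodomain protein, with 34 and 69, and from Pard3, a cell polarity gene, with 8 and 8. Malat1, an abundant nuclear long non-coding RNA from chromosome 19, had 10 Input pairs there and none listed in H3K27me3-RADIP.

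The exchange with these genes ran both ways. Wwox RNA had 188 Input and 185 H3K27me3-RADIP pairs on the bins of Cdyl2, which lies 1.22 Mb beyond the end of Wwox. On Cmip, 1.90 Mb away, Wwox RNA had 83 and 120 pairs, and on Pard3, 11.7 Mb away, it had 29 and 20 pairs in 3 and 2 of the 23 bins. In pair number, Wwox RNA on these genes was above their RNA on Wwox in both tables, but as a share of the pairs of each RNA the order differed for Cdyl2 in both tables, for Cmip in Input and for Pard3 in H3K27me3-RADIP. The bins of Cdyl2 took 2.05% of Wwox pairs in Input and 1.29% in H3K27me3-RADIP, and the bins of Wwox took 2.76% and 4.60% of Cdyl2 pairs. For Cmip these shares were 0.904% and 0.836% of Wwox pairs, and 1.71% and 0.507% of Cmip pairs. For Pard3 they were 0.316% and 0.139% of Wwox pairs, and 0.179% and 0.173% of Pard3 pairs.

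The flanks of the gene were listed without gaps for about the first megabase. Of the 40 bins within 1 Mb of the start of the gene, 39 were listed in Input and 40 in H3K27me3-RADIP, with 1003 and 1333 pairs. Of the 40 bins within 1 Mb of the end, all were listed in both, with 1266 and 1811 pairs. The 5 bins that follow the end of the gene, chr8:115375001-115500000, had 31 to 63 Input pairs each and 71 to 82 H3K27me3-RADIP pairs each. Their sum was 198 Input and 374 H3K27me3-RADIP pairs, and the log2 ratio of their shares of all pairs was 0.80 (interval 0.55 to 1.06), beside 0.30 (interval 0.23 to 0.36) for the bins of the gene. Over the whole 1 Mb it was 0.40 downstream (interval 0.30 to 0.50) and 0.29 upstream (interval 0.17 to 0.41). The 5 bins before the start had 148 and 226 pairs, with a log2 ratio of 0.49 (interval 0.19 to 0.80). These windows were set after the values were seen, and the 5 downstream bins were the most used bins outside the gene in H3K27me3-RADIP.

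All 19 protein-coding genes with a start within 2 Mb of Wwox had Wwox RNA on the bin of their start in both tables. Within this distance 146 of all 160 bins outside the gene were listed in Input (91.3%) and 154 in H3K27me3-RADIP (96.3%), so gene starts did not stand out there. Maf, a leucine zipper transcription factor 0.36 Mb beyond the end of Wwox, had 41 Input and 69 H3K27me3-RADIP pairs on its start bin, chr8:115700001-115725000. Clec3a, a C-type lectin gene next to the Wwox start, had 30 and 56 pairs, and Adamts18, a secreted metalloprotease gene, had 27 and 55. Vat1l had 41 and 53 pairs, and Nudt7, which encodes a peroxisomal coenzyme A hydrolase, had 29 and 44. On the start bin shared by Cmc2 and Cenpn, 1.57 Mb downstream, there were 17 and 12 pairs, and on that of Cdyl2 28 and 23, so the higher number was not always in H3K27me3-RADIP.

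Each of these neighbours had fewer listed pairs of its own RNA than Wwox. These pair numbers were not scaled by length, and all of these genes are shorter than Wwox, the longest being Cntnap4 with 313 kb. Of the 19 genes, 6 had no listed pairs in either table, and 11 had pairs in both. The highest were Cmip, which is 202 kb long, with 3269 Input and 4730 H3K27me3-RADIP pairs and Cdyl2 with 1230 and 1499. Clec3a, Mon1b, Nudt7 and Dynlrb2, although covered by Wwox RNA, had no listed pairs of their own. Vat1l had 13 Input and 81 H3K27me3-RADIP pairs, a log2 ratio of shares of 2.52 (interval 1.67 to 3.49).

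The listed bins thinned out beyond 1 Mb upstream and beyond 2 Mb downstream. On either side, at each distance class from 1 to 40 Mb, a larger share of bins was listed in H3K27me3-RADIP. At 2 to 5 Mb downstream, 50 of 120 bins were listed in Input (41.7%) and 97 in H3K27me3-RADIP (80.8%). At 5 to 10 Mb upstream it was 18 of 200 bins (9%) and 54 (27%), and at 20 to 40 Mb upstream 18 of 800 (2.25%) and 54 (6.75%). No bin was listed over 40 Mb upstream. Downstream, 12 of 158 bins between 10 Mb and the end of the chromosome were listed in Input and 36 in H3K27me3-RADIP. In all, 83 Input bins and 219 H3K27me3-RADIP bins lay over 5 Mb from the gene, and 41 bins were in both lists. That is 49.4% of the Input list and 18.7% of the H3K27me3-RADIP list. The median was 10 pairs in the Input bins and 11 in the H3K27me3-RADIP bins, close to the listing minimum of 9.

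**Figure D2:**
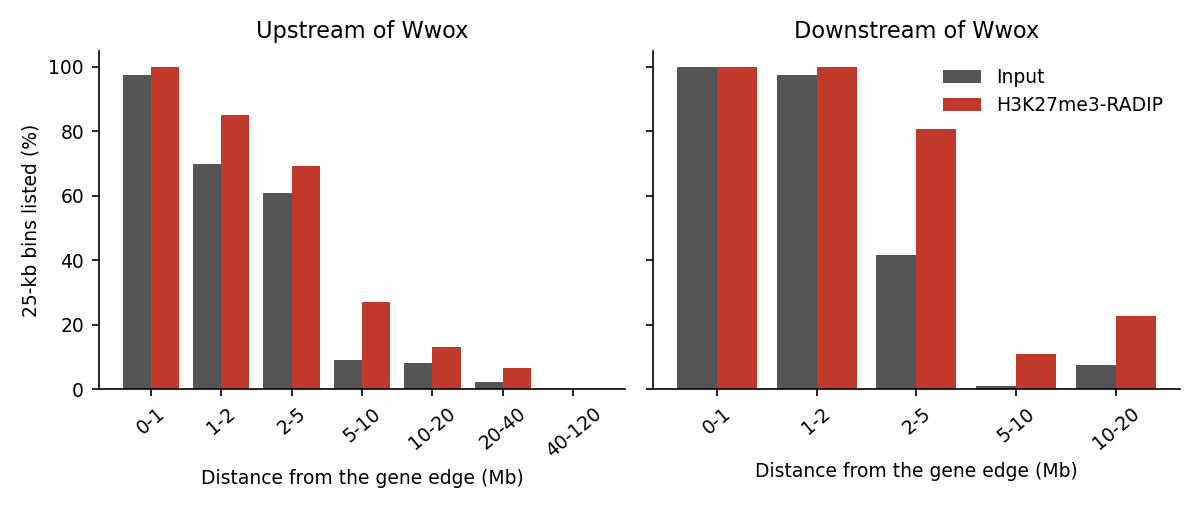
Share of 25-kb bins of chromosome 8 that were listed for Wwox RNA (vertical axis, percent) by distance from the gene edge in Mb (horizontal axis), upstream and downstream, for Input (grey) and H3K27me3-RADIP (red). Within 1 Mb nearly all bins were listed in both, and at 2 to 5 Mb downstream the shares were 41.7% and 80.8%.

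The far bins were not scattered evenly but lay in stretches. Stretches were taken over the bins of both tables together, with a gap of at least 2 Mb as the divider. The main stretch ran over 18.6 Mb, chr8:102775001-121375000, and included the gene. It held 8669 Input and 12902 H3K27me3-RADIP pairs. A stretch of 9.55 Mb, chr8:86575001-96125000, which begins 18.3 Mb upstream of Wwox, had 35 Input bins with 372 pairs and 82 H3K27me3-RADIP bins with 919 pairs. A stretch of 4.33 Mb, chr8:124200001-128525000, 8.85 Mb downstream, had 12 bins with 120 pairs and 43 bins with 509 pairs. Between these, no bin was listed in either table over the 2.83 Mb of chr8:121375001-124200000, although it holds 56 protein-coding gene starts. On the upstream side, 1 bin was listed in the region chr8:96125001-102775000, in H3K27me3-RADIP, with 10 pairs. Farther upstream, 2 Input bins in chr8:82900001-84025000 and 1 H3K27me3-RADIP bin at chr8:76900001-76925000 were the last ones listed.

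Listed and unlisted far bins differed in base composition and gene content, given here as a description. Over the bins 5 to 40 Mb away, the median GC content was 47.3% in the 41 bins listed in both tables, 46.7% in the 178 listed in H3K27me3-RADIP only, 44.5% in the 42 listed in Input only and 42.7% in the 1497 listed in neither. A protein-coding gene start lay in 34.1%, 25.8%, 21.4% and 16.3% of these bins. The pairs of all other RNAs on the same bins also moved with listing, with a median of 22 in Input and 36 in H3K27me3-RADIP on bins listed in both, and 17 and 19 on bins listed in neither. At 1 to 5 Mb the order was the other way, since the 43 bins listed in neither table had a median GC content of 47.3%, a gene start in 41.9% and 66 and 79 pairs of other RNAs, beside 45.6%, 19.8% and 27 and 38 pairs for the 167 bins listed in both. The part of base composition and general RNA contact in the listing was not tested.

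**Figure D3:**
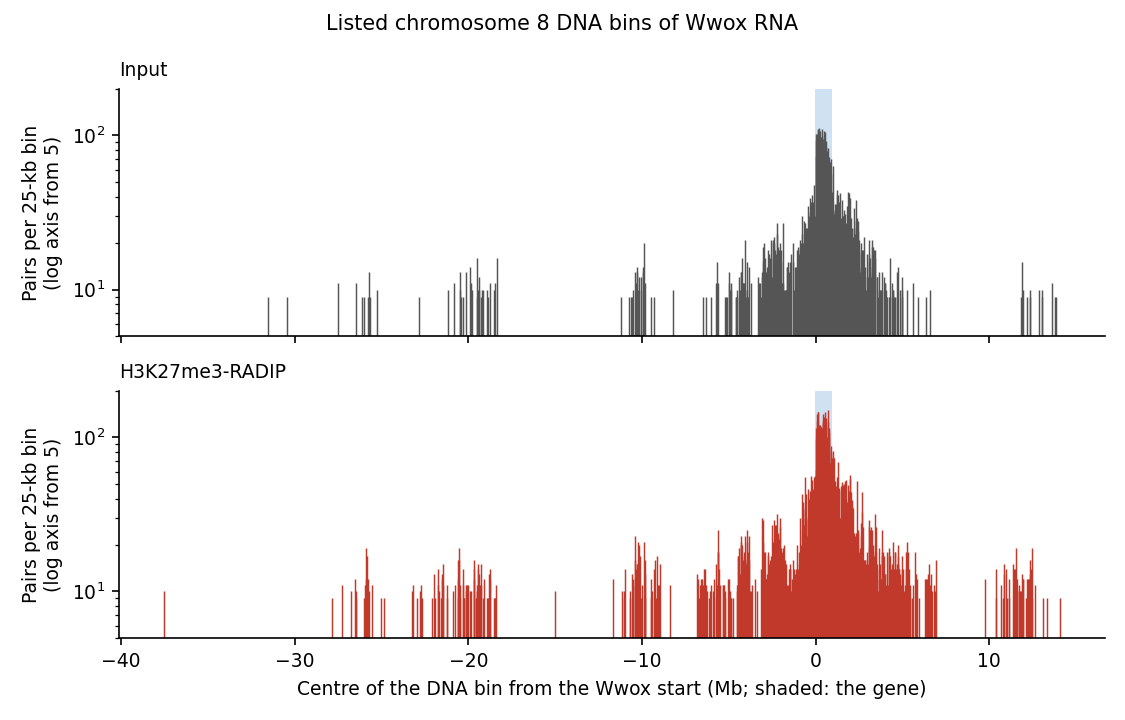
Wwox pairs per listed 25-kb bin of chromosome 8 (vertical, log axis that starts at 5) against the distance of the bin from the Wwox start in Mb (horizontal axis), for Input above and H3K27me3-RADIP below; the shaded band is the gene. Most far bins lie in a few stretches, taken over the bins of both tables together. Over 5 Mb from the gene, 83 bins were listed in Input and 219 in H3K27me3-RADIP, and 41 of these were in both.

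Among the far bins were genes of developmental regulators, a class of genes many of which are known to carry H3K27me3 in embryonic stem cells. Of 19 developmental and tissue-specific genes listed on chromosome 8, the start bin was listed for 2 in Input (Maf and Cdh5) and for 8 in H3K27me3-RADIP, which had the same 2 and Irx5, Irx6, Foxf1, Zfhx3, Cdh16 and Slc6a2. The other 11 start bins, among them those of Sall1, Hand2 and Sox1, were listed in neither. Over all 420 protein-coding genes that start 5 to 40 Mb from Wwox, 31 (7.38%) had their start bin listed in Input and 74 (17.6%) in H3K27me3-RADIP, so more start bins were listed in H3K27me3-RADIP in general as well. Of the genes on the developmental list, 15 lie at this distance, and 1 of these had its start bin listed in Input and 7 in H3K27me3-RADIP. The 7 include Slc6a2 and the cadherin genes Cdh5 and Cdh16, and Irx5 and Irx6 are neighbours. The list was drawn up with earlier results of these data known, so these numbers do not describe developmental genes as a class.

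Listed bins around these genes are given beside the other bins within 2 Mb of each window that lie over 5 Mb from Wwox, whose listed share differed from place to place. Not every gene of the developmental list was given a window. Tox3 and Cbln1, for example, had no listed bin in either table and no window. Every window below holds listed bins, so a share above that of the bins around it may come from this choice. Around the iroquois homeobox genes Irx3, Irx5 and Irx6, 21.8 to 22.6 Mb upstream of Wwox, 0 of the 45 bins of chr8:91675001-92800000 were listed in Input and 8 in H3K27me3-RADIP, with 86 pairs and at most 14 in a bin. The share listed in H3K27me3-RADIP was thus 17.8%, no higher than the 21.3% of the 160 bins around the window, and the shares in Input were 0% and 7.5%. Around Zfhx3, a zinc finger homeobox gene that starts 6.50 Mb upstream, 7 of 50 bins (14%) were listed in Input with 74 pairs and 25 (50%) in H3K27me3-RADIP with 310, beside 4.26% and 14.9% of the 94 bins around them. The bin with the most H3K27me3-RADIP pairs over 5 Mb away was in Zfhx3, chr8:108775001-108800000, with 25 pairs and none listed in Input, while the bin before it had 15 Input pairs and none listed in H3K27me3-RADIP. Around Foxf1, Foxc2 and Foxl1, forkhead genes 5.73 to 5.78 Mb downstream, 1 of 11 bins was listed in Input with 10 pairs and 6 in H3K27me3-RADIP with 69, beside 1 and 9 of the 104 bins around them. Around Nkd1, a regulator of Wnt signalling, and Sall1, 4 of 30 bins were listed in Input with 40 pairs and 9 in H3K27me3-RADIP with 111, beside 4 and 8 of 160 bins. Around the cadherin genes Cdh5 and Cdh16 the tables were closer, with 14 of 29 bins and 171 pairs in Input and 17 bins and 251 pairs in H3K27me3-RADIP, beside 8 and 22 of 160 bins. Since an unlisted bin may hold up to 8 pairs, a difference is not the full number listed, and none of these could be set against a spread between replicates.

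Other far bins with many pairs differed in which table held more. The start bin of Adgrg1, an adhesion receptor gene 19.5 Mb upstream, had 16 Input and 10 H3K27me3-RADIP pairs. The bin of Slc35f3, 10.9 Mb downstream, had 15 and 13 pairs. That of Tk2, which encodes mitochondrial thymidine kinase, had 12 and 20. The bin with the starts of Nae1 and Car7 had 9 and 21. The following bin, chr8:104550001-104575000, which overlaps Car7, had 20 Input pairs, the most of any Input bin over 5 Mb away, and was not listed in H3K27me3-RADIP.

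The 2 sides of the gene were used about equally. Upstream DNA made up 3169 Input and 5082 H3K27me3-RADIP pairs, and downstream DNA 2859 and 5066. As a share of pairs outside the gene, the upstream side had 52.6% in Input and 50.1% in H3K27me3-RADIP (H3K27me3-RADIP minus Input, -2.49 percentage points, interval -4.08 to -0.899). With only bins of at least 20 pairs the difference turned to 1.77 points (interval -0.451 to 3.97). At a q-value of at most 0.01 it was -1.64 points (interval -3.35 to 0.0667), and with each bin counted once -1.90 points (interval -8.40 to 4.70). With repeated positions counted once, over shared bins and over DNA tags within 5 Mb, the whole interval stayed negative. The position of the RNA tag in the gene went with the side of its DNA within 1 Mb of the gene. In Input, 53.7% of the outside pairs within 1 Mb were upstream for RNA from the first 20% of the gene (interval 49.7 to 57.7%) and 32.8% for RNA from the last 20% (interval 26.4 to 39.9%). In H3K27me3-RADIP these shares were 51.8% (interval 48.4 to 55.2%) and 35.1% (interval 29.2 to 41.5%). RNA from the end of the gene was thus more often joined to downstream DNA, while RNA from the start was joined to both sides about equally.

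Wwox RNA was joined at longer distances than any other protein-coding RNA with at least 50 pairs in both tables, in all measures used except the share over 5 Mb in H3K27me3-RADIP. The median distance between RNA and DNA tag was 1025 kb in Input (interquartile range 260.1 to 2646 kb), and it was 1394 kb in H3K27me3-RADIP (interquartile range 350 to 4154 kb). The log2 ratio of these medians was 0.44, given without an interval. Over the 3239 RNAs the medians centred on 21.4 kb and 29.9 kb, and the next highest were Tenm4 with 513 kb in Input and Fgfr2 with 745 kb in H3K27me3-RADIP. The farthest Wwox pairs were 32.1 Mb apart in Input and 38.1 Mb in H3K27me3-RADIP.

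Pairs over 100 kb apart were 84.6% of Input and 87.2% of H3K27me3-RADIP pairs, a gap of 2.57 percentage points (interval 1.66 to 3.50). Pairs over 1 Mb apart were 50.5% and 56.9%, a difference of 6.42 points (interval 5.12 to 7.73). Both shares were the highest of the 3239 RNAs in both tables. The next highest over 1 Mb were Fgfr2 with 34.4% in Input and Mcph1 with 44.8% in H3K27me3-RADIP. Over 5 Mb, Wwox had 10.6% (interval 9.94 to 11.2%) and 19.6% (interval 18.9 to 20.2%), and in H3K27me3-RADIP Tenm4 was higher with 20.1%. The difference depended on the bins compared, since over the 325 bins listed in both tables the share over 1 Mb was lower in H3K27me3-RADIP (difference -2.10 points) and the log2 ratio of the medians was -0.10. Over these shared bins the difference in the share over 100 kb was 0.0961 points (interval -0.952 to 1.15).

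**Figure D4:**
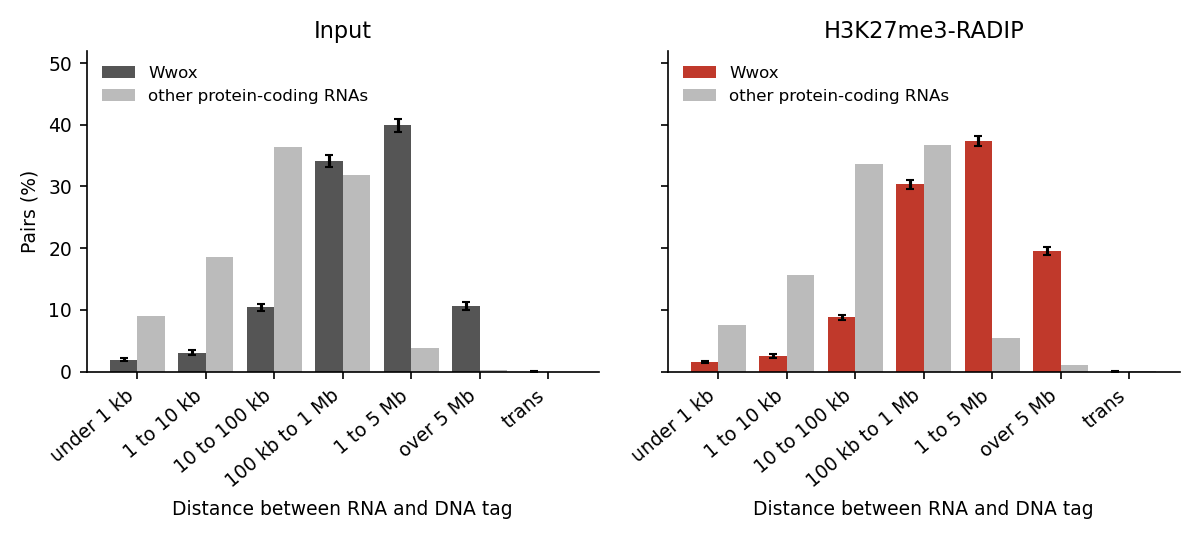
Share of pairs (vertical axis, percent) by distance between RNA and DNA tag (horizontal axis) for Wwox (dark bars with 95% Wilson intervals) and all other protein-coding RNAs pooled (light bars), in Input and H3K27me3-RADIP. The class of 1 to 5 Mb held 39.9% and 37.3% of Wwox pairs and 3.89% and 5.49% of the others.

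RNA in far pairs came from the same parts of the gene as RNA in near pairs, with a shift towards intron 8. Intron 8 gave 56.9% of Input pairs within 100 kb (interval 54.3 to 59.4%) and 73.1% of those over 5 Mb (interval 70.2 to 75.8%). In H3K27me3-RADIP it gave 63.2% (interval 60.9 to 65.3%) and 73.3% (interval 71.7 to 74.9%). The 969 Input pairs over 5 Mb used 861 RNA positions, and the 2808 H3K27me3-RADIP pairs used 2465, so the far pairs did not come from a few RNA positions.

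As a share of all pairs, Wwox made up 0.703% of Input (interval 0.689 to 0.718%) and 1.01% of H3K27me3-RADIP (interval 0.998 to 1.03%), and it ranked 3 among all RNAs in both tables. The log2 ratio of the shares was 0.53 (interval 0.49 to 0.57). A log2 ratio of at least 0.5 was reached by 279 of the 3239 protein-coding RNAs with at least 50 pairs in both tables, or 8.61%, and 92.3% of these RNAs had a lower ratio than Wwox. The value for Wwox is a sum over listed bins and moves with how many were listed. Over the 325 shared bins, with 8473 Input and 11091 H3K27me3-RADIP pairs, it was 0.27. In these shared bins, the median log2 ratio per bin was 0.31 inside the gene, where 31 of 38 bins were above 0, 0.32 downstream, where 94 of 127 were, and 0.08 upstream, where 91 of 160 were.

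Other long genes had lower shares of pairs over 1 Mb apart. Among 34 protein-coding genes of at least 500 kb with at least 1000 pairs in each table, the other 33 had log2 ratios of -0.65 to 0.36 with a median of 0.02, all below that of Wwox. Their shares over 1 Mb ran from 2.39 to 34.4% in Input with a median of 12.3%, and from 2.65 to 44.3% in H3K27me3-RADIP with a median of 17.6%. The share over 1 Mb was higher in H3K27me3-RADIP for 28 of the 33, and 10 had a larger difference than Wwox, up to 11.2 percentage points for Magi1. The shift to longer distances was thus shared with most long genes. Pairs per kb of gene were 10.1 for Wwox in Input and 15.7 in H3K27me3-RADIP, beside medians of 3.4 and 3.39 for the others. In Input, Tenm4 with 11.7 and Exoc4 with 10.4 pairs per kb were above Wwox.

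The long genes with the nearest pair numbers in Input were Tenm4, Exoc4 and Fgfr2. Tenm4, which encodes a teneurin membrane protein and is 740 kb long, had 8679 Input and 11573 H3K27me3-RADIP pairs, with 40.8% and 34.9% inside the gene and 33.4% and 43.0% over 1 Mb. Exoc4, an exocyst subunit gene of 725 kb, had 7567 and 7408 pairs, with 43.1% and 28.8% inside and 30.6% and 39.6% over 1 Mb. Wwox had a smaller share inside the gene than either in Input, and a larger share over 1 Mb in both tables. Fgfr2, a fibroblast growth factor receptor gene annotated over 2961 kb, had 10821 and 15044 pairs. The nearest distance profiles over 7 distance classes in both tables, of 184 RNAs with at least 1000 pairs in each, were those of Fgfr2, Tenm4 and Mcph1, a gene of chromosome condensation on chromosome 8. Their summed absolute differences from Wwox were 57.3, 63.4 and 67.1 percentage points, so none was close.

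**Figure D5:**
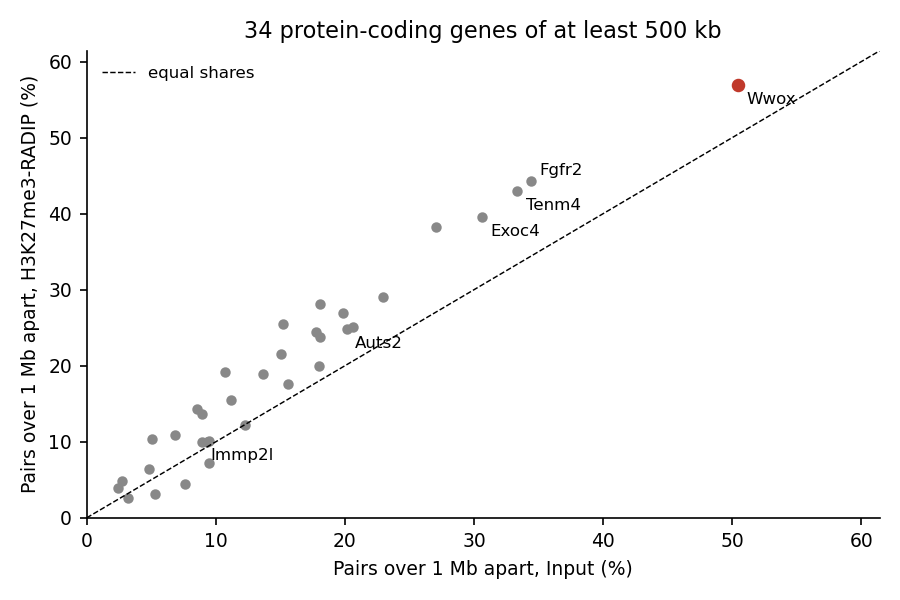
Share of pairs over 1 Mb apart in Input (horizontal axis, percent) and H3K27me3-RADIP (vertical axis, percent) for 34 protein-coding genes of at least 500 kb with at least 1000 pairs in each table; the dashed line marks equal shares. Wwox (red) lies at 50.5% and 56.9%, apart from the other genes.

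Other genes of common fragile sites, which are also long, did not share the level of Wwox. Of 21 on the list, 16 had at least 50 pairs in both tables. The log2 ratio was at least 0.5 for 0 of them and at most -0.5 for 5, and the median was -0.05, beside -0.05 for all 3239 RNAs, of which 8.61% were at least 0.5 and 16.6% at most -0.5. Those at most -0.5 were Dmd with -1.24 (477 Input and 219 H3K27me3-RADIP pairs), Magi2 with -1.22 (334 and 156), Cntnap2 with -0.98 (149 and 82), Macrod2 with -0.86 (324 and 193) and Immp2l with -0.56 (1711 and 1258). Fhit, like Wwox a tumour suppressor gene at a fragile site, had 949 and 981 pairs and a log2 ratio of -0.07 (interval -0.20 to 0.06), with 10.1% and 20.0% of pairs over 1 Mb. In H3K27me3-RADIP the highest pair numbers of the list were those of Auts2, with 2138 Input and 2752 H3K27me3-RADIP pairs and a log2 ratio of 0.25, and of Rora, a nuclear receptor gene, with 1532 and 2046 pairs and 0.30.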

How the data were processed

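RNA-DNA pairs from PGK12.1 mouse embryonic stem cells were analysed, from 8 Input and 8 H3K27me3-RADIP libraries that the methods describe as 4 biological replicates each. The authors merged them, removed ribosomal RNA, mapped tags uniquely to mm10 with BWA (0.7.15-r1140 in the submitters' processing notes), removed DNA tags in blacklisted regions, annotated RNA tags by strand with GENCODE, and tested 25-kb DNA bins with a negative binomial model adapted from CHiCANE. The deposited tables give, for each pair, tag positions and the p-value and the q-value of its bin, with pairs up to a q-value of 0.1. They therefore hold listed pairs only, and their totals (1305107 and 1415135) are not sequencing depths. No column carries a replicate.

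Wwox rows were taken by RNA name. Tag centres gave distances, and gene models came from GENCODE M21 on the same build, an older release than that of the authors. The members and gene lists were chosen with earlier results of these data known. Intervals are exact Poisson, Wilson or Newcombe intervals, or conditional exact intervals for ratios, computed with Python 3.11.15 and scipy 1.17.1, and no test was run because each condition is 1 table. Pairs carry no molecular identifiers here, so intervals cover counting error only. Named genes were those of the lists, the 3 RNAs nearest in distance profile, the 3 long genes nearest in Input pair number, genes starting in the 10 most used outside bins or over 5 Mb away, and other RNAs on the gene. Alternatives were a q-value of at most 0.01, repeated positions counted once, shared bins, other totals and TMM scaling, distance from the gene edge, mean distance, and each bin counted once. Bins with at least 20 pairs and DNA tags within 5 Mb were added after seeing the data. The scripts were checked on simulated data. Some genes of the lists are not reported here by name.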

Additional observations from a re-analysis of the deposited data

How the results depend on the processing

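No paired analysis was possible because each condition is 1 merged table whose columns carry no replicate, and for the same reason no library could be left out. Over 45 recomputed values, 41 kept their direction and 4 turned. Over the bins listed in both tables, the log2 ratio of the share was 0.27, the difference in the share inside the gene turned to 0.698 percentage points, that over 100 kb was 0.0961, that over 1 Mb turned to -2.10 and the log2 ratio of median distances turned to -0.10; this alternative leaves out the bins that 1 table lists. At a q-value of at most 0.01, which kept bins of at least 11 pairs in Input and 10 in H3K27me3-RADIP, these values were 0.63, -7.88, 3.86, 10.5 and 0.67. Over DNA tags within 5 Mb they were 0.39, -2.32, 1.42, 2.29 and 0.15, with -5.16 for the upstream share. With bins of at least 20 pairs, the log2 ratio was 0.49, the share inside -6.31, the ratio of medians 0.32, and the upstream share turned to 1.77. The log2 ratio was 0.61 with TMM scaling and 0.37 against all pairs of chromosome 8 RNAs. Counting each bin once gave -3.65 inside and 1.55 over 100 kb, and distance from the gene edge gave 5.10 over 100 kb and 7.75 over 1 Mb. The causes were not tested beyond these constructions. The difference in the share in intron 8 was 1.25 to 2.49 points.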

Other observations

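The 11 listed genes whose proteins are known to bind WWOX all lie on other chromosomes, where no Wwox RNA pair was listed, so their own RNA pairs are given. Of these, 10 had listed RNA pairs in at least 1 table, and 5 had at least 50 in both. Hif1a, the oxygen-regulated transcription factor gene, had 67 Input and 107 H3K27me3-RADIP pairs with a log2 ratio of shares of 0.56 (interval 0.10 to 1.02). Itch, a ubiquitin ligase gene, had 126 and 75 pairs with -0.87, and Atm, the DNA damage kinase gene, had 92 and 54 with -0.89. Runx2, a transcription factor gene of bone, had 62 and 89 pairs with 0.40 (interval -0.08 to 0.90), and Ezr, which encodes the membrane linker ezrin, had 138 and 154 with 0.04 (interval -0.30 to 0.38). Thus 1 of the 5 had a log2 ratio of at least 0.5 and 2 had one of at most -0.5, beside 8.61% and 16.6% of all 3239 protein-coding RNAs. Trp73, of the family of the tumour suppressor p53, was below 50 pairs in Input, with 45 and 112 pairs and a log2 ratio of 1.2 (interval 0.69 to 1.73). Tfap2a and Tfap2c had 10 and 13 pairs in H3K27me3-RADIP and none listed in Input, and Erbb4 had none listed in either table.

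Most Wwox pairs had a combination of RNA and DNA position of their own. Pairs with the same RNA and DNA position as another made up 15.8% of Input and 18.6% of H3K27me3-RADIP pairs, and counting each combination once would remove 8.08% and 9.46%. In either table, no DNA position had more than 4 pairs. DNA tags fell on both strands evenly, with 50.1% and 50.3% on the plus strand.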
